A study of Rattus norvegicus with 16 samples.

Results

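Genes of the extracellular matrix were followed in RNA-seq data from 2 brain regions, hippocampus and hypothalamus, of Sprague Dawley rats, all male. The set was a list of 40 gene symbols for collagens, basement membrane proteins, matrix glycoproteins and elastic fibre proteins, and enzymes and inhibitors that remodel the matrix. Small leucine-rich proteoglycans were not part of it. Of the 40 symbols, 32 had a locus in both tables and 8 (Lamb1, Col12a1, Col6a1, Fbln2, Col6a3, Lama2, Col4a2 and Nid1) were not analysed here. A symbol was taken at its locus with the highest mean, and 29 symbols reached a mean of at least 1 FPKM (sequenced fragments scaled by transcript length and library depth) over all libraries of a tissue, 28 of them in both tissues. The tables held 18087 loci in hippocampus and 17762 in hypothalamus, of which 11385 and 11498 reached that mean and were tested.

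The treated rats were given fructose for 6 weeks and the control rats received no treatment, with strain, sex and tissue the same in both groups. The labels list 4 libraries per group and tissue; the hippocampus table holds 4 fructose and 4 control libraries, and that of hypothalamus 3 fructose and 4 control libraries, since it has no column for fructose replicate 4. The labels do not give the rats' age or the fructose dose and do not say whether libraries came from separate rats, so p-values measure the spread between these libraries, which may be technical. FPKM values carry no read counts, so the depth is unknown; they summed to 353703 to 402099 per library in hippocampus and 435105 to 492778 in hypothalamus. The tissue labels fitted their markers: genes of hypothalamic neurons (such as Pmch and Hcrt) summed to 2.85 to 27.7 FPKM per library in hippocampus and 3237 to 8818 FPKM in hypothalamus. The replicate 1 libraries stood apart from the others in both tissues and both groups (their deviations from the group means correlated at 0.892 between fructose and control in hippocampus and at 0.848 in hypothalamus, over all tested loci), and the main medians are therefore also given without them.

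Fibrillar collagens such as types I, III and V form the fibres of connective tissue, while the basement membrane that surrounds blood vessels is a sheet of type IV collagen, laminins, nidogens and collagen XVIII. Glycoproteins such as fibronectin and the fibulins link cells to these scaffolds, and elastin is an elastic fibre protein. Lysyl oxidases, metalloproteinases and their inhibitors cross-link the matrix or control its cutting. In brain most of these proteins are made at the meninges and along vessels, by fibroblasts, mural cells and endothelial cells, and the tissue between neurons holds little fibrillar collagen.

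2 stretches of DNA before the starts of member genes are shown, because they show the promoter layout of a basement membrane collagen and of the collagen chaperone gene. Sequences are RefSeq's for the rat build GRCr8, which is not the build of the FPKM tables (rn5), and 26 of the 40 symbols had a promoter entry. The interval between the head-to-head genes Col4a1 and Col4a2 at chr16:84885521-84885596 (plus strand) is shown with a GC box on its reverse strand in capitals. The stretch before the start of Serpinh1 in the RefSeq table, at chr1:163062977-163063096 (minus strand), is shown with an inverted GAA repeat in capitals.
Col4a1-Col4a2 interval: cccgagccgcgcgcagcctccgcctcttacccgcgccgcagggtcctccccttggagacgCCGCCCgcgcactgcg
Serpinh1: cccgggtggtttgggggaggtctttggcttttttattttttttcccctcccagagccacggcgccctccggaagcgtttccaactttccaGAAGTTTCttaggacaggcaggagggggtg
A GC box (GGGCGG, either strand) was found in 19.3% of all promoter windows as long as the Col4a1-Col4a2 interval, and the inverted repeat (GAANNTTC) in 3.47% of windows as long as the Serpinh1 stretch. Over the 250 bases before the start, a GC box was present in 18 of the 26 member promoters (69.2%) and in 32.4% of all 27457 promoters. A CCAAT box (CCAAT, either strand) was present in 9 of the 26 (34.6%), against 34.3% of all promoters, and TATAAA in 3 of the 26 (11.5%), against 13.1%. The inverted GAA repeat was present in 1 of the 26 (3.85%), against 7.02%. These are letter matches and not sites of binding.

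Levels are given first. Each table was normalized on its own, so levels of the 2 tissues are set side by side without a test. Sparc, a collagen-binding glycoprotein that astrocytes and endothelial cells also make, was the highest member in both, at 455 ± 88.3 FPKM in control hippocampus and 1310.4 ± 305 FPKM in control hypothalamus (SD, n = 4 each). Next in control hippocampus came Serpinh1, the collagen chaperone HSP47, at 53.5 ± 21.7 FPKM, and Timp3, a metalloproteinase inhibitor bound to the matrix, at 41.5 ± 20.8 FPKM. In control hypothalamus the next was Mgp, matrix Gla protein, at 227 ± 77.9 FPKM, against 36.8 ± 34.2 FPKM in control hippocampus. Of the 28 members tested in both tissues, 24 had the higher control mean in the hypothalamus table, as did 59.6% of all 9931 symbols tested in both; the 4 with the higher mean in the hippocampus table were Col8a1, Fbn1, Mmp2 and Thbs2. The 2 tables can differ far in the level of a single gene: Gapdh, a housekeeping gene with 1 locus in each, lay between 420 and 746 FPKM in the hypothalamus table and between 4.88 and 7.14 FPKM in the hippocampus table.

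The low end of the list is set by the rule. Col14a1, a fibril-associated collagen, lay just inside the minimum in hippocampus at a mean of 1.10 FPKM and just outside it in hypothalamus at 0.919 FPKM. Postn, the glycoprotein periostin, lay just outside in hippocampus at 0.9996 FPKM, and its fructose replicate 2 alone held 3.40 FPKM. It averaged 0.279 FPKM in hypothalamus. Col11a1, a minor fibrillar collagen, averaged 0.784 FPKM in hippocampus and passed in hypothalamus at 1.59 FPKM, where Col8a1 was just inside at 1.26 FPKM. Col1a2, the partner chain of Col1a1 in type I collagen, was listed at 0 in all 15 libraries at both of its loci. The housekeeping gene Hprt1 was also listed at 0 at both loci in hypothalamus, so a 0 in these tables is read only as listed at 0. Loxl1 in hippocampus and Mmp2 in hypothalamus had a second locus (means of 0.273 and 3.88 FPKM), and their values are uncertain in that tissue since reads may have been split between loci.

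**Figure D1:**
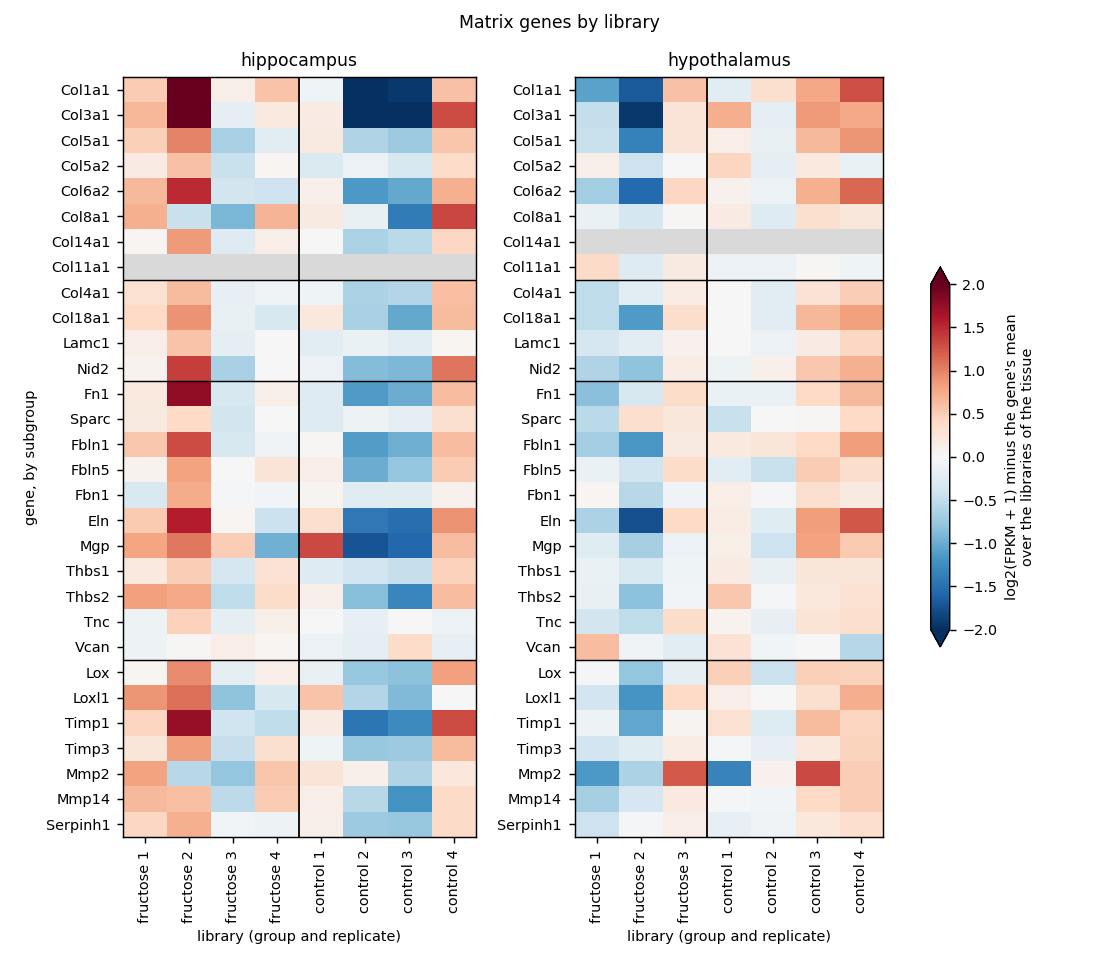
Each cell is log2(FPKM + 1) of a gene (rows, by subgroup) in a library (columns) minus that gene's mean over the libraries of the tissue; red is above and blue below the mean, and grey marks a gene under a mean of 1 FPKM in that tissue. In hippocampus fructose replicate 2 is red and control replicates 2 and 3 are blue for most genes, and in hypothalamus fructose replicates 1 and 2 are blue for most genes.

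The effect of fructose in hippocampus was tested with limma on log2(FPKM + 1), adjusted by Benjamini-Hochberg over all 11385 loci. No member passed an adjusted p of 0.05, and neither did any other locus (0% called). The fitted fold changes of the 29 tested members were positive, with a median of 0.44 on the log2 scale, against a median of -0.0038 over all loci, of which 48.6% were positive. Col14a1 reached the minimum mean only through its fructose libraries, so its sign was favoured by the filter. Over the 28 members with both group means at 1 FPKM or above, 28 were positive, with a median of 0.45. This direction turned for single members under other settings (Mmp2, Col8a1, Sparc, Vcan and, with a library left out, Fbn1). At an unadjusted p under 0.05, 92 loci were found, and 1 of the 29 members was higher, against 0.334% of all loci. No member had its fructose libraries all above the control libraries, as 0.255% of all loci did. With the replicate number as a further term (a block), 3 members (Mmp14, Thbs2 and Col1a1) were higher at an unadjusted p under 0.05, against 0.782% of all loci, and none passed after adjustment.

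The median rested on a few libraries. Leaving out fructose replicate 2 gave 0.20. Leaving out a control library gave 0.26 for replicate 2, 0.26 for replicate 3 and 0.71 for replicate 4. Without both replicate 1 libraries it was 0.50, with 26 of the 29 members positive, and with array weights it was 0.89. The number of members at an unadjusted p under 0.05 was 11 without control replicate 4, 2 without fructose replicate 3, and 0 without any of fructose replicates 2 and 4 and control replicates 2 and 3. The share of all loci is not given for each library left out, so these counts describe the members alone.

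Among the interstitial collagens of the hippocampus, the 7 tested genes had positive fold changes with a median of 0.38, which is the value of Col14a1. The other 6, each with both group means at 1 FPKM or above, had a median of 0.49. Col1a1, the main chain of type I collagen, measured 51.5, 191, 38.9 and 53.8 FPKM in fructose replicates 1 to 4, against 33.6, 7.35, 8.67 and 54.2 FPKM in control replicates 1 to 4. Fructose replicate 2 was far above all others, control replicates 2 and 3 were far below, and control replicate 4 lay among the fructose libraries. Its log2 fold change was 1.79 ± 0.72 (SE; unadjusted p = 0.0365, adjusted p = 0.9999 by limma with Benjamini-Hochberg adjustment), and it was higher in 3 of 4 same-numbered pairs. Col3a1, which forms fibres together with type I collagen, measured 13.2, 35.2, 6.84 and 9.26 FPKM with fructose, against 9.07, 1.10, 1.199 and 21.2 FPKM in controls. The order of its libraries was close to that of Col1a1, with the groups overlapping, and its log2 fold change was 1.33 ± 0.83.

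Col6a2, a chain of the beaded-filament collagen VI, measured 22.2, 40.8, 10.4 and 10.1 FPKM with fructose, against 14.9, 5.65, 6.29 and 23.2 FPKM in controls, a log2 fold change of 0.68 ± 0.55. Again fructose replicate 2 was the highest library and control replicates 2 and 3 were the lowest. Col5a1 and Col5a2, which regulate fibril diameter, averaged 5.41 ± 3.16 and 4.51 ± 1.59 FPKM with fructose, against 4.08 ± 2.17 and 3.80 ± 1.13 FPKM in controls (SD, n = 4), differences smaller than the spread. Col14a1 averaged 1.37 ± 0.855 FPKM with fructose and 0.823 ± 0.632 FPKM in controls. Col8a1, a short-chain collagen of vessel walls, differed from the rest of the collagens. It measured 6.20, 2.26, 1.34 and 6.05 FPKM with fructose, against 4.03, 2.99, 0.670 and 10.1 FPKM in controls, so that fructose replicate 2 was low for it and control replicate 4 the highest, and its log2 fold change was 0.01 ± 0.60.

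**Figure D2:**
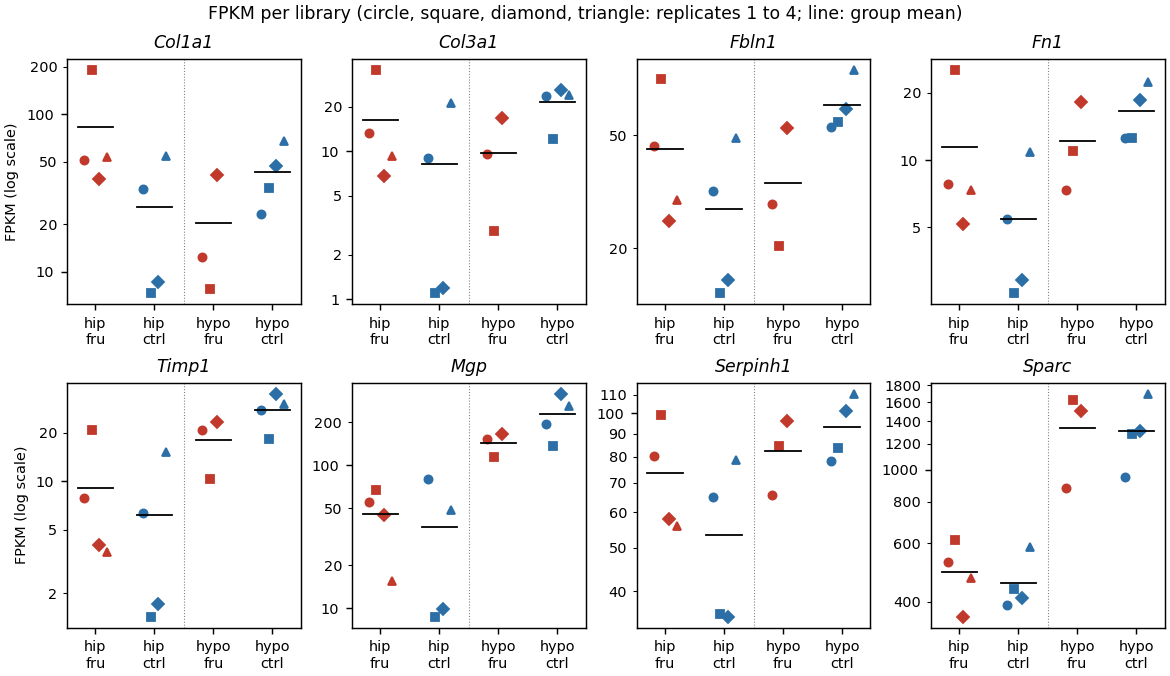
FPKM of 8 members in each library on log axes, with fructose in red left of control in blue within each tissue (hip, hippocampus; hypo, hypothalamus; fru, fructose; ctrl, control) and the group mean as a line. The groups overlap in every hippocampus panel, and in hypothalamus Fbln1 is the only one of the 8 whose fructose libraries all lie below the controls.

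The 4 measured basement membrane genes had fold changes from 0.26 to 0.42, with a median of 0.37. Col4a1, a chain of the network collagen IV, measured 9.20, 11.8, 6.34 and 6.89 FPKM with fructose, against 6.81, 4.33, 4.52 and 11.5 FPKM in controls. Col18a1, the heparan sulphate collagen that is the source of endostatin, measured 14.3, 20.6, 9.40 and 8.32 FPKM, against 12.4, 6.38, 4.70 and 16.9 FPKM. In both genes the groups overlapped and the top libraries were fructose replicate 2 and control replicate 4. Lamc1, the laminin gamma 1 chain, varied less, with 11.6 ± 2.92 FPKM against 9.33 ± 0.855 FPKM (SD, n = 4), a log2 fold change of 0.26 ± 0.16. Nid2, which bridges laminin and collagen IV, averaged 6.75 ± 5.14 FPKM with fructose and 5.03 ± 4.35 FPKM in controls. None of the 4 reached an unadjusted p of 0.05, where 0.334% of all loci were higher.

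The 11 glycoprotein and elastic fibre genes had a median of 0.56, and none reached an unadjusted p of 0.05 in the group-only fit, while Thbs2 did with the replicate block. Fn1, fibronectin, measured 7.81, 25.3, 5.15 and 7.32 FPKM with fructose, against 5.44, 2.53, 2.89 and 10.8 FPKM in controls, a log2 fold change of 0.88 ± 0.52. One library, fructose replicate 2, held more than the other fructose libraries together. Fbln1, fibulin 1, which binds fibronectin and basement membranes, measured 45.8, 78.8, 24.9 and 29.6 FPKM with fructose, against 31.8, 13.9, 15.5 and 48.8 FPKM in controls. Its log2 fold change was 0.72 ± 0.47, with control replicate 4 above 3 of the fructose libraries. Eln, elastin, had a similar order of libraries, with 8.51, 18.6, 5.79 and 3.92 FPKM against 7.35, 1.46, 1.31 and 11.3 FPKM.

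Mgp, an inhibitor of calcification, was highest in a control library: it measured 55.0, 66.6, 44.9 and 15.6 FPKM with fructose, against 79.9, 8.77, 9.92 and 48.6 FPKM in controls. Thbs2, a thrombospondin that binds matrix proteases, measured 8.09, 7.69, 2.62 and 5.60 FPKM with fructose, against 4.51, 1.83, 1.07 and 6.84 FPKM in controls. It was higher in 3 of 4 pairs, and its log2 fold change of 0.72 ± 0.46 had an unadjusted p of 0.154 in the group-only fit and 0.0416 with the replicate block (limma). Thbs1, the related thrombospondin that activates latent TGF-beta, averaged 3.04 ± 0.896 FPKM with fructose and 2.29 ± 1.08 FPKM in controls (SD, n = 4). Fbln5, which organizes elastic fibres, averaged 3.65 ± 1.30 FPKM against 2.36 ± 1.62 FPKM. 4 glycoproteins stayed close between the groups. Sparc averaged 493 ± 106 FPKM with fructose and 455 ± 88.3 FPKM in controls, and Fbn1, the microfibril protein fibrillin 1, 4.38 ± 1.88 FPKM with fructose and 3.62 ± 0.577 FPKM in controls. Tnc, the anti-adhesive tenascin C, averaged 2.18 ± 0.659 FPKM with fructose and 1.84 ± 0.152 FPKM in controls. Vcan, the hyaluronan-binding proteoglycan versican, averaged 4.96 ± 0.378 FPKM with fructose and 4.83 ± 1.17 FPKM in controls.

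The 7 remodelling genes had a median of 0.47. Mmp14, the membrane-bound metalloproteinase that activates pro-Mmp2, measured 24.5, 23.7, 10.3 and 22.1 FPKM with fructose, against 16.9, 10.2, 6.13 and 20.4 FPKM in controls. It was the one member higher in all 4 same-numbered pairs, as were 3% of all loci, although the groups overlapped. Its log2 fold change of 0.61 ± 0.39 had an unadjusted p of 0.158, and 0.0118 with the replicate block (limma). Mmp2 itself, a gelatinase, averaged 6.73 ± 3.96 FPKM with fructose and 6.07 ± 1.70 FPKM in controls (SD, n = 4), a log2 fold change of 0.01 ± 0.38. Timp1, a secreted inhibitor of metalloproteinases, measured 7.90, 21.0, 4.00 and 3.62 FPKM with fructose, against 6.36, 1.43, 1.72 and 15.3 FPKM in controls. Its 2 highest libraries came from different groups, and its log2 fold change was 0.63 ± 0.71. Timp3 averaged 56.0 ± 20.2 FPKM with fructose and 41.5 ± 20.8 FPKM in controls. Serpinh1, whose promoter stretch is printed above, measured 80.3, 99.2, 57.9 and 55.9 FPKM with fructose, against 64.9, 35.6, 35.1 and 78.6 FPKM in controls. The cross-linking enzymes Lox and Loxl1 averaged 2.38 ± 1.28 and 5.45 ± 3.71 FPKM with fructose, against 1.62 ± 1.53 and 3.44 ± 2.01 FPKM in controls.

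**Figure D3:**
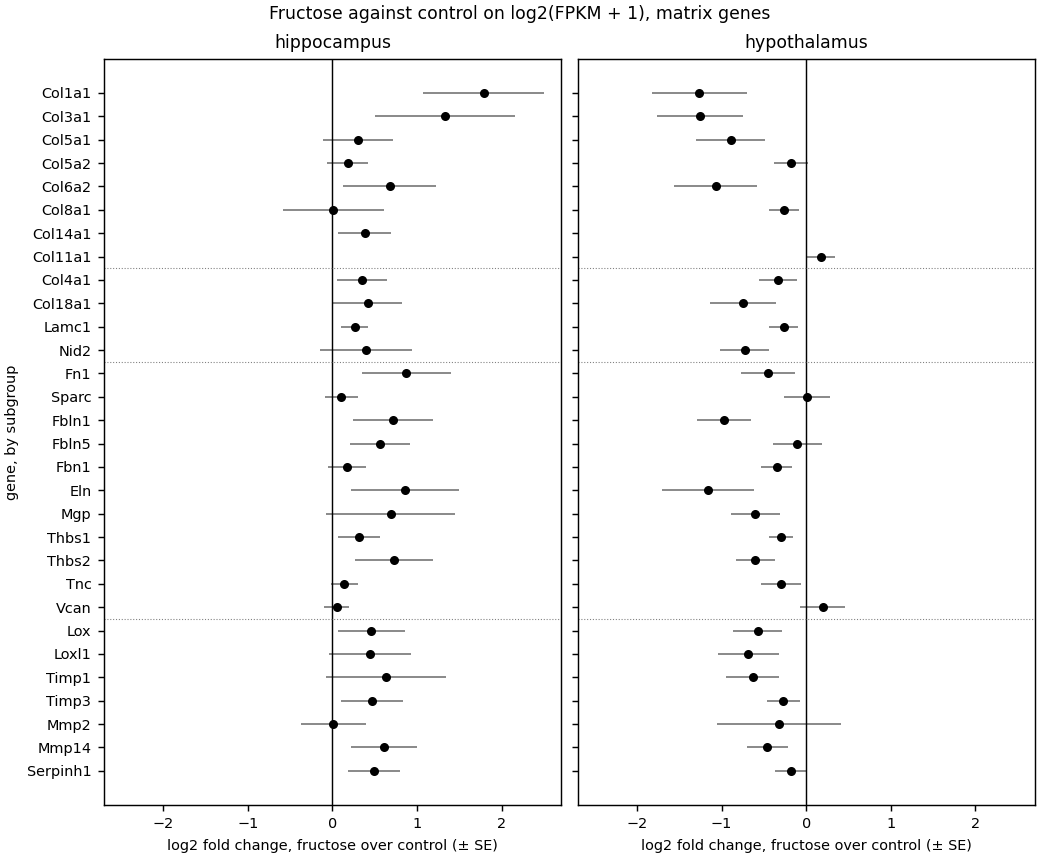
Log2 fold change of each member, fructose over control, on log2(FPKM + 1), with its SE from limma, by subgroup from collagens (top) to remodelling genes (bottom). All 29 points in hippocampus lie above 0, where 48.6% of all loci do, and 26 of 29 in hypothalamus lie below 0, where 48.5% do. No member passed the adjusted threshold in either tissue.

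In hypothalamus, the same test over 11498 loci gave 1 locus past an adjusted p of 0.05 (0.0087% called), which was higher with fructose and no member. No member passed. The fitted fold changes of 26 of the 29 members were negative, against 48.5% of all loci, with a median of -0.45 against 0.0065 over all loci. The 3 positive ones were Vcan (0.20), Col11a1 (0.17) and Sparc (0.01), and signs turned for Col11a1 with limma's array weights and for Vcan, Sparc, Fbln5 and Mmp2 with a library left out. At an unadjusted p under 0.05, 4 members were lower (Fbln1, Thbs2, Nid2 and Col3a1), against 2.12% of all loci. In 2 members, Fbln1 and Thbs2, the fructose libraries all lay below the control libraries, against 1.58% of all loci. In 20 of the 29, fructose was lower in all 3 same-numbered pairs, as it was in 12.5% of all loci. With the replicate block, 13 members were lower at an unadjusted p under 0.05 (Col1a1, Col3a1, Col5a1, Col6a2, Col18a1, Nid2, Fbln1, Eln, Mgp, Thbs2, Lox, Timp1 and Mmp14), against 4.32% of all loci, and the lowest adjusted p of a member was 0.282 (limma). Control replicate 4 has no fructose partner in hypothalamus and adds nothing to the block estimate. That estimate rests on the 3 same-numbered pairs, so it differs from that of the group-only fit.

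The libraries weighed unequally here too. The median was -0.69 without fructose replicate 3 and -0.29 without fructose replicate 2, and -0.34 without both replicate 1 libraries. The number of members at an unadjusted p under 0.05 was 14 without fructose replicate 3, 11 without control replicate 2, and 1 without any of fructose replicate 2 and control replicates 3 and 4. Here too the share of all loci is not given for each library left out, and the counts describe the members alone.

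The 7 interstitial collagens had the lowest median of the subgroups in hypothalamus, -0.89. Col1a1 measured 12.4, 7.80 and 41.3 FPKM in fructose replicates 1 to 3, against 23.4, 34.2, 46.9 and 67.9 FPKM in control replicates 1 to 4. Fructose replicates 1 and 2 were below every control, and fructose replicate 3 was in the middle of them. The log2 fold change was -1.26 ± 0.56 (unadjusted p = 0.0571, limma), and -1.01 with the replicate block (unadjusted p = 0.0190, limma). Col3a1 measured 9.64, 2.88 and 16.8 FPKM with fructose, against 23.6, 12.1, 25.8 and 24.0 FPKM in controls, with fructose replicate 3 above control replicate 2. Its log2 fold change was -1.26 ± 0.51 (unadjusted p = 0.0404, limma), and -1.18 with the block (unadjusted p = 0.00152, limma).

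Col6a2 measured 9.04, 4.49 and 20.5 FPKM with fructose, against 16.2, 14.0, 25.6 and 34.7 FPKM in controls, a log2 fold change of -1.07 ± 0.49. Col5a1 measured 1.82, 0.505 and 3.59 FPKM with fructose, against 3.19, 2.47, 5.02 and 6.09 FPKM in controls, a log2 fold change of -0.89 ± 0.41. Both had the pattern of Col1a1, with the low values in fructose replicates 1 and 2. Col5a2 and Col8a1 averaged 6.09 ± 1.31 and 1.02 ± 0.261 FPKM with fructose (SD, n = 3), against 7.05 ± 1.64 and 1.44 ± 0.398 FPKM in controls (SD, n = 4). Col11a1 stood on the other side, with 2.33, 1.14 and 1.91 FPKM against 1.36, 1.36, 1.62 and 1.43 FPKM.

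All 4 basement membrane genes had negative fold changes, with a median of -0.53. Nid2 measured 2.36, 1.92 and 4.66 FPKM with fructose, against 3.75, 4.45, 6.38 and 7.30 FPKM in controls, a log2 fold change of -0.73 ± 0.29 (unadjusted p = 0.0378, limma). Fructose replicate 3 kept the groups from separating. Col18a1 measured 10.5, 6.48 and 20 FPKM with fructose, against 15.5, 13.2, 25.1 and 28.0 FPKM in controls, a log2 fold change of -0.75 ± 0.39. Col4a1 and Lamc1 differed less, with 9.30 ± 2.36 and 11.4 ± 1.87 FPKM with fructose (SD, n = 3), against 11.97 ± 2.80 and 13.9 ± 2.45 FPKM in controls (SD, n = 4).

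Of the 11 glycoprotein and elastic fibre genes, 9 had negative fold changes, with a median of -0.35. Fbln1 measured 28.7, 20.4 and 53.1 FPKM with fructose, against 53.6, 55.7, 62.0 and 84.9 FPKM in controls. Fructose replicate 3 and control replicate 1 nearly met, and the groups did not overlap. The log2 fold change of -0.98 ± 0.32 had the smallest p of the members (unadjusted p = 0.0163, adjusted p = 0.9998 by limma). Thbs2 measured 1.74, 0.725 and 1.94 FPKM with fructose, against 3.45, 1.98, 2.54 and 2.78 FPKM in controls. The gap between its groups was also narrow, from 1.94 to 1.98 FPKM, and its log2 fold change was -0.60 ± 0.23 (unadjusted p = 0.0320, limma).

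Eln measured 4.46, 1.51 and 10.2 FPKM with fructose, against 8.42, 6.21, 14.2 and 19.1 FPKM in controls, a log2 fold change of -1.16 ± 0.54. Mgp measured 152, 114 and 165 FPKM with fructose, against 196, 136, 315 and 260 FPKM in controls, a log2 fold change of -0.60 ± 0.29. In both, fructose replicate 2 was the lowest library and the highest controls lay well above every fructose library. Fn1 measured 7.36, 10.9 and 18.3 FPKM with fructose, against 12.6, 12.6, 18.6 and 22.5 FPKM in controls. Thbs1, Fbn1 and Tnc averaged 2.30 ± 0.252, 1.63 ± 0.543 and 5.47 ± 2.22 FPKM with fructose (SD, n = 3), against 3.08 ± 0.487, 2.31 ± 0.335 and 6.72 ± 1.16 FPKM in controls (SD, n = 4). Fbln5 (7.27 ± 2.28 against 8.01 ± 2.81 FPKM) and Vcan (5.81 ± 2.23 against 4.87 ± 1.36 FPKM) had small differences in relation to their spread. Sparc measured 883, 1622 and 1509.9 FPKM with fructose, against 949.7, 1287, 1309 and 1696 FPKM in controls, with the replicate 1 library the lowest of each group.

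The remodelling genes of the hypothalamus all had negative fold changes, with a median of -0.46. None reached an unadjusted p of 0.05 in the group-only fit, where 2.12% of all loci were lower, and 3 of the 7 (Timp1, Lox and Mmp14) did with the replicate block, where 4.32% of all loci were lower. Timp1 measured 20.8, 10.4 and 23.3 FPKM with fructose, against 27.9, 18.3, 35.1 and 30.3 FPKM in controls, a log2 fold change of -0.63 ± 0.31. It was lower in all 3 pairs. Its p was 0.0808, and 0.00218 with the replicate block, where the log2 fold change was -0.58 (both p-values unadjusted, limma). Mmp14 measured 8.37, 10.8 and 15.9 FPKM with fructose, against 13.4, 13.2, 18.5 and 19.7 FPKM in controls, with an unadjusted p of 0.0930, and 0.0258 with the block (limma). Lox measured 2.28, 0.959 and 1.93 FPKM with fructose, against 3.66, 1.47, 3.65 and 3.57 FPKM in controls, so that control replicate 2 lay among the fructose libraries. Its unadjusted p was 0.0861, and 0.0114 with the block (limma). Loxl1 averaged 12.4 ± 7.04 FPKM with fructose (SD, n = 3) and 19.0 ± 4.67 FPKM in controls (SD, n = 4). Timp3 and Serpinh1 averaged 62.6 ± 12.6 and 82.2 ± 15.5 FPKM with fructose, against 76.0 ± 14.8 and 93.3 ± 15.1 FPKM in controls. At the locus taken, Mmp2 was the most scattered member, with 3.62 ± 4.19 FPKM with fructose (SD, n = 3) and 4.40 ± 3.54 FPKM in controls (SD, n = 4), and the replicate 1 library was the lowest of each group. Its second locus, with a mean of 3.88 FPKM, ran only from 2.50 to 4.72 FPKM over the libraries.

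Whether fructose acted differently in the 2 tissues was tested over 9931 symbols, as the log2 fold change in hypothalamus minus that in hippocampus. No symbol passed the adjusted threshold (0% called), and 229 had an unadjusted p under 0.05. Of the 28 members tested in both tissues, 27 had a negative difference, against 45.4% of all symbols, with a median of -1.05 against 0.02 over all symbols. The exception was Vcan, with a difference of 0.15 ± 0.30, and signs turned under some settings for Vcan, Sparc, Col8a1 and Mmp2. In 26 of the 28, the fold change was positive in hippocampus and negative in hypothalamus, as in 21.9% of all symbols. 8 members (Col1a1, Fbln1, Col3a1, Thbs2, Eln, Col6a2, Mmp14 and Lamc1) had a negative difference at an unadjusted p under 0.05, against 1.80% of all symbols. The difference of Col1a1 was -3.05 ± 0.97 (unadjusted p = 0.00665, adjusted p = 0.9999 by limma), that of Col3a1 was -2.59 ± 1.04 and that of Fbln1 was -1.70 ± 0.61. With single hippocampus libraries left out, the 8 became 18 without control replicate 4, 15 without fructose replicate 3, 4 without fructose replicate 1, and 2 without any of fructose replicate 2 and control replicates 2 and 3. With single hypothalamus libraries left out, it became 13 without fructose replicate 3, 12 without control replicate 2, 4 without any of fructose replicate 1 and control replicates 3 and 4, and 2 without fructose replicate 2. These counts are given without the share of all symbols in the same setting and describe the members alone. With limma's array weights, 336 of the 9931 symbols passed, and 11 of the 28 members among them, with adjusted p-values from 0.0215 to 0.0465. This was the single alternative in which members passed, and the median was then -1.61.

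The members moved together from library to library. In hippocampus, fructose replicate 2 was the highest library for 23 of the 29 members and for 8.37% of all loci. Control replicates 2 and 3 both lay below all other libraries in 19 of the 29 and in 5.03% of all loci. In hypothalamus, fructose replicate 2 was the lowest library for 19 of the 29 members and for 15.5% of all loci, and fructose replicates 1 and 2 both lay below all other libraries in 15 of the 29 and in 4.98% of all loci. Both pairs of libraries were picked from the members' own values, so these counts only describe the members. Members also varied more within groups than other loci: the median SD of log2(FPKM + 1) within groups was 0.641 for members and 0.241 for all loci in hippocampus, and 0.430 and 0.253 in hypothalamus. Within a group, the highest library of a member exceeded the lowest by a median of 3.09-fold with fructose and 3.60-fold in controls in hippocampus, and by 2.05-fold with fructose and 1.79-fold in controls in hypothalamus.

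**Figure D4:**
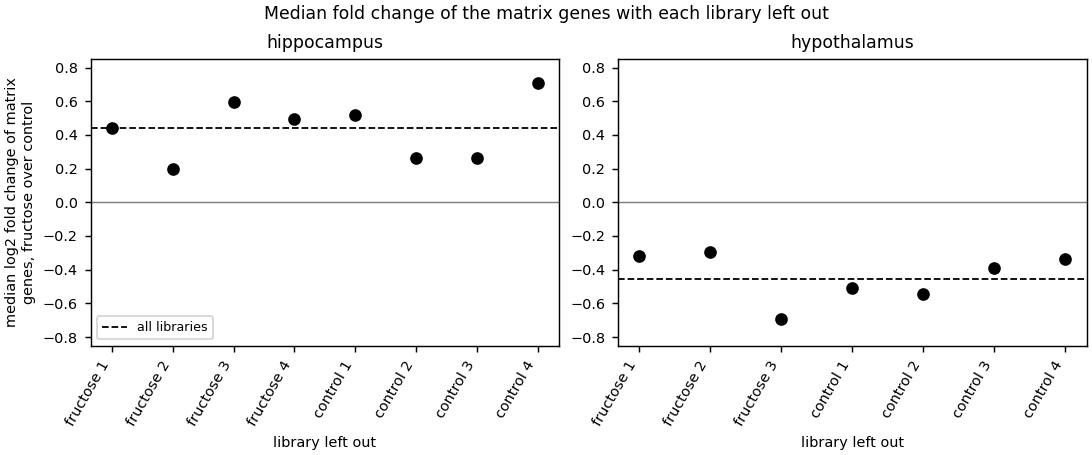
Median log2 fold change of the members, fructose over control, when the library named on the axis was left out; the dashed line is the median with all libraries and the grey line is 0. The medians run from 0.20 to 0.71 in hippocampus and from -0.69 to -0.29 in hypothalamus.

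Markers of meningeal fibroblasts had an order of libraries similar to that of the members. Of 14 listed markers of meningeal fibroblasts, 13 had a locus and none of these was listed at 0 throughout. The 13, among them the transporters Slc22a6 and Slc6a13, were all positive in hippocampus, with a median of 0.77, and summed to 140 to 481 FPKM per fructose library, against 32.4 to 355 FPKM per control library. In hypothalamus all 13 were negative, with a median of -1.40, and the sums were 34.2 to 192 FPKM with fructose, against 198 to 391 FPKM in controls. There, 12 of the 13 reached an unadjusted p under 0.05 and 5 did not overlap between the groups, against 2.12% and 1.58% of all loci, and none passed after adjustment. Tbx18 of this list reached the minimum mean only through its controls (0.846 FPKM with fructose and 2.40 FPKM in controls), so the filter favoured its sign. The other markers were not searched for this. In hippocampus the median distance of the meningeal markers from their mean over libraries was 1.24 in fructose replicate 2 and -0.998 and -1.34 in control replicates 2 and 3, where that of the matrix members was 0.84, -0.65 and -0.82. In hypothalamus it was -0.66 and -1.99 in fructose replicates 1 and 2, where that of the members was -0.38 and -0.56.

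Mural cell markers had medians of 0.20 in hippocampus (9 of 10 positive) and -0.34 in hypothalamus (8 of 11 negative), and summed to 355 to 1125 FPKM with fructose against 149 to 1672 FPKM in control hippocampus, and to 230 to 421 FPKM with fructose against 311 to 696 FPKM in control hypothalamus. Endothelial markers had medians of 0.13 (9 of 10 positive) and -0.28 (9 of 10 negative), with sums of 188 to 237 FPKM with fructose against 164 to 237 FPKM in control hippocampus, and 109 to 144 FPKM with fructose against 137 to 155 FPKM in control hypothalamus. In hypothalamus 3 of 11 mural markers, Acta2 (-1.39), Tagln (-1.23) and Des (-1.22), were lower at an unadjusted p under 0.05 (limma). So were 2 of 10 endothelial markers, Icam2 (-0.48) and Kdr (-0.44), against 2.12% of all loci. The groups did not overlap for Icam2, as in 1.58% of all loci, and 1 mural marker was separated the other way. In hippocampus no marker of either list reached that p, and none passed after adjustment in either tissue. The median distance of mural markers from their mean was -0.47 and -0.16 in hypothalamus fructose replicates 1 and 2. That of endothelial markers was -0.39 and -0.024, where that of the matrix members was -0.38 and -0.56. Neuron markers had medians of 0.03 and -0.02. Astrocyte markers had medians of -0.08 in hippocampus and 0.20 in hypothalamus, choroid plexus markers 0.26 and -0.0083, and markers of microglia and macrophages -0.01 and -0.02. In hippocampus 2 of the 6 in this last list were positive, Mrc1 (0.72) and Cd68 (0.39), and 4 were negative. In hypothalamus 3 were negative, among them Mrc1 (-0.41) and Cd68 (-0.43), and 3 were positive. The part of these cell markers in the matrix values was not tested, and in bulk tissue fewer cells of a type and less RNA per cell cannot be told apart.

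**Figure D5:**
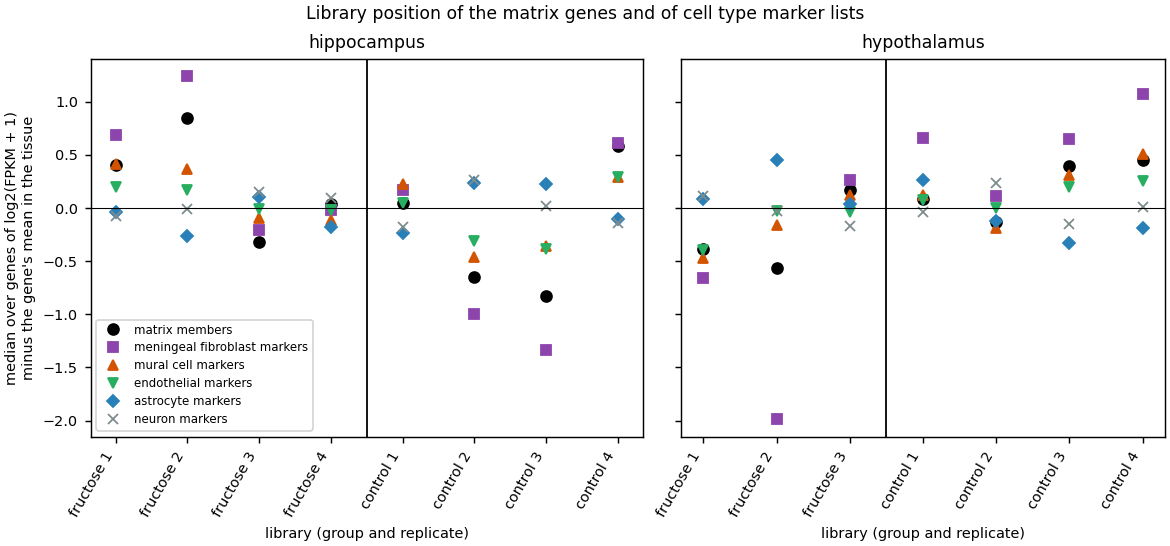
Median over the genes of a list of log2(FPKM + 1) minus the gene's mean in the tissue, for each library, with fructose libraries left of the vertical line and controls right of it. The meningeal fibroblast markers (squares) lie farther from 0 than the matrix members (circles) in the libraries at either end, such as 1.24 against 0.84 in hippocampus fructose replicate 2, while neuron markers (crosses) lie within 0.27 of 0 in every library.

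Other matrix genes were described from lists that do not contain the members. No gene of these lists passed the adjusted threshold in either tissue. In hypothalamus some reached the minimum mean only through their controls, so that the filter favoured a negative sign. These were Col13a1 (0.566 FPKM with fructose and 1.45 FPKM in controls), Lama1 (0.821 and 1.20 FPKM) and Itga8 (0.695 and 1.34 FPKM). Itga1 passed in hippocampus only through its fructose libraries (1.28 and 0.864 FPKM). The lists were not searched for others. In hypothalamus, genes for collagen synthesis and processing had a median of -0.11, with 10 of 14 negative. Among them was Pcolce, the enhancer of procollagen processing, with 10.4 ± 6.46 FPKM with fructose (SD, n = 3) and 24.9 ± 5.94 FPKM in controls (SD, n = 4), a log2 fold change of -1.30 ± 0.35 (unadjusted p = 0.00692, limma). Its groups did not overlap, as in 1.58% of all loci. In hippocampus the list had a median of 0.09, with 14 of 16 positive, and Pcolce averaged 9.16 ± 6.00 FPKM with fructose and 5.84 ± 4.78 FPKM in controls (SD, n = 4).

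Other glycoproteins and elastic fibre partners had medians of -0.40 in hypothalamus (11 of 12 negative) and 0.27 in hippocampus (11 of 12 positive). Vtn, vitronectin, averaged 45.1 ± 10.6 FPKM with fructose and 81.5 ± 19.2 FPKM in control hypothalamus, a log2 fold change of -0.84 ± 0.22 (unadjusted p = 0.00592, limma). Mfap5, a microfibril protein, averaged 3.62 ± 2.63 FPKM with fructose and 7.06 ± 1.03 FPKM in control hypothalamus, and 6.04 ± 7.36 FPKM with fructose and 2.12 ± 2.93 FPKM in control hippocampus. All 7 measured collagens of the second list were negative in hypothalamus, with a median of -0.43, counting Col13a1, whose sign the filter favoured. In hippocampus 1 of 4 was positive, with a median of -0.08. Other basement membrane proteins had medians of -0.13 in hypothalamus (7 of 10 negative) and 0.26 in hippocampus (6 of 8 positive).

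Among other proteases and inhibitors, with medians of -0.11 in hypothalamus (11 of 16 negative) and 0.00 in hippocampus (8 of 15 positive), Ctsk, the collagen-degrading cathepsin K, averaged 4.38 ± 1.85 FPKM with fructose and 9.31 ± 2.11 FPKM in control hypothalamus. Its fructose libraries all lay below the controls, as in 1.58% of all loci. Genes of TGF-beta and CCN signalling had medians of -0.20 in hypothalamus (9 of 14 negative) and 0.10 in hippocampus (11 of 14 positive). Ctgf, a matricellular protein induced by TGF-beta, averaged 6.56 ± 2.01 FPKM with fructose and 14.1 ± 4.40 FPKM in control hypothalamus, a log2 fold change of -0.98 ± 0.29 (unadjusted p = 0.0106, limma). In the same list Smad4, the common mediator of TGF-beta signals, was on the other side, with 14.2 ± 0.495 FPKM with fructose and 10.6 ± 1.76 FPKM in control hypothalamus. Integrins and collagen receptors had medians of 0.02 in hypothalamus (7 of 16 negative) and 0.06 in hippocampus (10 of 15 positive). In hypothalamus 2 of the 16, Itga5 and Itga1, were lower at an unadjusted p under 0.05 (limma), against 2.12% of all loci.

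The interstitial matrix of brain tissue, made by neurons and glia and built on hyaluronan, was described by a list of its own. This list, with lecticans, link proteins, tenascin R and reelin, had a median of 0.04 in hypothalamus (4 of 8 negative) and -0.11 in hippocampus (6 of 7 negative). The rest of its 14 genes were under the minimum mean. Among them the lectican Ncan was listed at 0 in every hypothalamus library. Tnr, tenascin R, averaged 5.05 ± 0.918 FPKM with fructose (SD, n = 3) and 3.38 ± 0.755 FPKM in control hypothalamus (SD, n = 4), a log2 fold change of 0.47 ± 0.18 (unadjusted p = 0.0360, limma). Reln, reelin, averaged 17.2 ± 2.45 FPKM with fructose and 21.3 ± 3.81 FPKM in control hippocampus (SD, n = 4).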

How the data were processed

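Members, subgroups and lists were chosen with earlier results of these data known. FPKM values are those the authors deposited, 1 table per tissue; the submitters' processing notes list Cufflinks and Cuffdiff, the aligners TopHat, TopHat2, Bowtie and Bowtie2, and rn5 as the build. Per the labels' protocols, libraries were made from poly-A RNA, sequenced on an Illumina instrument and demultiplexed with CASAVA 1.8.2. The depth is unknown, so no intervals for counting error are given. The design assumed 4 against 4 libraries in each tissue; hypothalamus had 3 against 4.

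Tests used loci whose mean FPKM was 1 or more, on log2(FPKM + 1), which understates fold changes of low genes, with limma 3.58.1 in R 4.3.3 (moderated test, trend in the prior variance, group as the only term, Benjamini-Hochberg adjustment over all loci, threshold 0.05), and the tissues were joined by symbol for the difference. The fits within a tissue were tested on simulated data, with planted changes larger than the main fold change of any member in a tissue. Their spread was capped below that of most members, and no library carried a shared shift. That test does not show how the fits perform on the members. Named genes are all members with a locus and up to 3 genes per list and tissue with the smallest p. Python 3.11.15 and matplotlib 3.10.9 made the figures.

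The labels give replicate numbers without saying what they stand for. Deviations of same-numbered fructose and control libraries from their group means correlated at 0.892, 0.208, 0.481 and 0.410 in hippocampus and 0.848, 0.488 and 0.456 in hypothalamus. The replicate numbers were therefore taken as pairs in the pair counts and the replicate block. In hypothalamus the control library without a fructose partner adds nothing to the block estimate. The main fits did not use them. Without replicate 1 the correlations came to -0.226, 0.404 and 0.0882 (hippocampus) and 0.269 and 0.0364 (hypothalamus), so that the pairing rests largely on replicate 1.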

Additional observations from a re-analysis of the deposited data

Results flagged for a closer look

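In 87 groups of 4 libraries (members by group), 6 held a library far from the other 3 by Dixon's test, where chance gives about 1 in 20; groups of 3 were not examined. In hippocampus fructose replicate 2 was the highest for Col1a1 (191 FPKM) and Fn1 (25.3 FPKM). In control hippocampus replicate 4 was the highest for Thbs1 (3.90 FPKM) and replicate 3 for Vcan (6.57 FPKM). In control hypothalamus replicate 2 was the lowest for Col3a1 (12.1 FPKM) and Lox (1.47 FPKM).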

How the results depend on the processing

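No member passed the adjusted threshold in either tissue in any setting run, and the median kept its sign in all of them. In hippocampus the members at an unadjusted p under 0.05 numbered 1, and 0 with no filter, 17 with array weights, 3 with the replicate block and 0 to 11 with a library left out; the block changed no adjusted call of a member. Those in the direction of the median numbered 17 of fewer tested members at a minimum of 5 FPKM, and 27 to 29 with a library left out (loci passing 0 to 1, medians 0.20 to 0.71). In hypothalamus the locus count was 1, and 2 with no filter, 0 at a minimum of 5 FPKM, 2 without both replicate 1 libraries, 2 with the replicate block and 0 to 2 with a library left out. The members at an unadjusted p under 0.05 numbered 4, and 2 with no filter, 2 at a minimum of 5 FPKM, 16 with array weights, 7 with loci summed, 2 without both replicate 1 libraries, 13 with the replicate block, 7 with a batch term for replicate 1 and 1 to 14 with a library left out (direction 24 to 27, medians -0.69 to -0.29). For the difference between tissues that number was 8, and 5 with no filter, 3 without all replicate 1 libraries, 24 with array weights and 2 to 18 with a library left out (symbols passing 0 to 1, members passing 0 to 0, direction 26 to 27, medians -1.25 to -0.75). With array weights 336 of 9931 symbols and 11 of 28 members passed there. Apart from the replicate block, the share of all loci at that unadjusted p is not given for these alternatives. Their counts describe the members alone. The causes were not tested.

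Signs turned in hippocampus for Mmp2 (-0.0080 with a pseudocount of 0.1, -0.10 with array weights, -0.17 without replicate 1), Col8a1 (-0.021 with quantile values, -0.16 without replicate 1), Vcan (-0.055 with array weights) and Sparc (-0.00062 without replicate 1). In hypothalamus Col11a1 turned (-0.10 with array weights). In the difference Sparc turned (0.037 with the replicate block, 0.14 without replicate 1, 0.036 with array weights), as did Vcan (-0.014 with the block). With a library left out, hippocampus values ran from -0.45 to 0.46 for Col8a1, -0.048 to 0.30 for Fbn1, -0.25 to 0.27 for Mmp2, -0.0058 to 0.25 for Sparc and -0.0052 to 0.18 for Vcan. Hypothalamus values ran from -0.31 to 0.068 for Fbln5, -1.03 to 0.16 for Mmp2, -0.15 to 0.29 for Sparc and -0.057 to 0.36 for Vcan, and differences from -0.72 to 0.19 for Col8a1, -1.04 to 0.15 for Mmp2, -0.26 to 0.18 for Sparc and -0.11 to 0.31 for Vcan. The fit without hypothalamus fructose replicate 4 was not run, as the table holds no such column. Without read counts the tables do not show how much of the spread of low members is counting error, and no interval for it can be given.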
